A study of Mus musculus with 12 samples.

Results

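The 10 genes described here build elastic fibres or cross-link them. They are the lysyl oxidases Lox, Loxl1, Loxl2, Loxl3 and Loxl4, the elastin gene Eln, the fibrillins Fbn1 and Fbn2, and the microfibril-associated genes Emilin1 and Mfap5. They were picked by symbol as a functional group, with earlier results of these data known, and all 10 were found among the 47729 genes listed per library. RNA was sequenced from 6 mouse cell lines, 3 from lymph node metastases (M1, M2 and M3) and 3 from primary liver tumours (T1, T2 and T3). Each line was cultured for 48 h with 2 µM PLX4720, an inhibitor of mutant BRAF, or with its solvent DMSO, and gave 1 library per treatment. All 6 lines, those under DMSO included, are labelled BRAFV600E with p53 KO, whereas the series design speaks of BRAFV600E restricted to hepatocytes together with loss of either Trp53 or Cdkn2a. A replicate is therefore a cell line, 3 per group, and the p-values below measure the spread between lines. In the authors' file naming the same number stands for T3 and also for M2 and M3, and no label says whether these 3 lines have separate animals as their source.

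Elastic fibres consist of a core of cross-linked elastin laid onto a scaffold of fibrillin microfibrils. Lysyl oxidases are secreted copper enzymes that oxidise lysine side chains of elastin and fibrillar collagens, and the reactive groups then join neighbouring chains. Fibrillin microfibrils also hold latent TGF-beta in the matrix, and in the liver cross-linking by lysyl oxidases is known as a step that stiffens fibrotic tissue.

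Library totals ran from 31992512 to 39288748 counted fragments. The mitochondrial share was 3.68% in T3 under PLX4720 and between 0.189% and 0.712% in the other 11 libraries. All 6 lines are labelled as liver cancer, and the markers differed sharply between sites. The 8 hepatocyte markers summed to 0.0582 to 0.152 CPM in metastasis lines under PLX4720 and 0.0595 to 0.239 CPM under DMSO, where CPM is fragments per 1000000 of the scaled library. In primary lines they summed to 141 to 333 CPM under PLX4720 and 161 to 314 CPM under DMSO. Most of that was Hnf4a, with means of 186 CPM under PLX4720 and 181 CPM under DMSO. Trf averaged 14.3 and 21.9 CPM there, Alb 7.41 and 3.65 CPM, and Cps1 0.0176 and 0.00928 CPM. None of the 8 reached a mean of 1 CPM in metastasis lines and Alb, albumin, was at 0 in each of those libraries, so the hepatocyte label is not borne out there by these markers. The 7 biliary and epithelial markers summed to 21.7 to 43.0 CPM in metastasis lines and 5501 to 8181 CPM in primary lines over both treatments. Much of the sum in metastasis lines was Sox9, with means of 18.9 CPM under PLX4720 and 23.6 CPM under DMSO. It was at 18.4 and 23.4 CPM in primary lines. The 8 fibroblast and stellate markers summed to 545 to 2706 CPM in metastasis lines under PLX4720 and 141 to 1337 CPM under DMSO, against 1.85 to 32.3 and 1.26 to 15.3 CPM in primary lines. Of these, Des was at 0 in every metastasis library, and Thy1 and Lum were at 0 in every primary library. Pdgfra or Pdgfrb held the largest part of the sum in each metastasis library. Dcn and Thy1 stood at 312 and 128 CPM in M1 under PLX4720, but at most at 7.49 and 3.96 CPM in M2 and M3. Reln ran the other way, with means of 0.0274 and 0.0398 CPM in metastasis lines under PLX4720 and DMSO, against 1.44 and 1.47 CPM in primary lines. Endothelial and leukocyte markers summed to at most 2.51 CPM in metastasis lines, and endothelial ones reached 75.0 CPM in a primary line, T1 under DMSO. Most of that sum was a single gene, Tek, at 69.6 CPM. Pecam1, Cdh5, Kdr and Stab2 were each far lower in that library, so the sum does not stand for the endothelial list as a whole. The part of these differences in the results below was not tested.

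Metastasis lines were compared with primary lines first, to see where the fibre genes are transcribed. Lox, Loxl1, Fbn1, Fbn2 and Emilin1 were higher in metastasis lines than in primary lines under both treatments, although Fbn2 was low in M1, and Loxl3 was higher in metastasis lines by the test under PLX4720. Loxl4 ran the other way, and Loxl2 overlapped between the sites. Eln itself was practically absent from every library. By edgeR's quasi-likelihood test with Benjamini-Hochberg adjustment over all genes, 6 of the 8 genes tested under PLX4720 were higher in metastasis lines, while 5.62% of the 15276 genes tested were called higher. Under DMSO 5 of 8 were higher, against 4.64% of 14992 genes, and 1 was lower, against 7.49%. Fbn2 reached 10 fragments in 0 of 3 primary libraries of either treatment and Lox in 1 of 3. Under DMSO Loxl1 and Emilin1 reached it in 2 of 3. These genes thus entered those tests through the metastasis lines. The counts above, and the p-values of these genes in those tests, only describe the group. Eln and Mfap5 did not pass the filter on low counts in either site comparison. In bulk RNA, fewer cells of a type and less RNA per cell cannot be told apart.

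**Figure D1:**
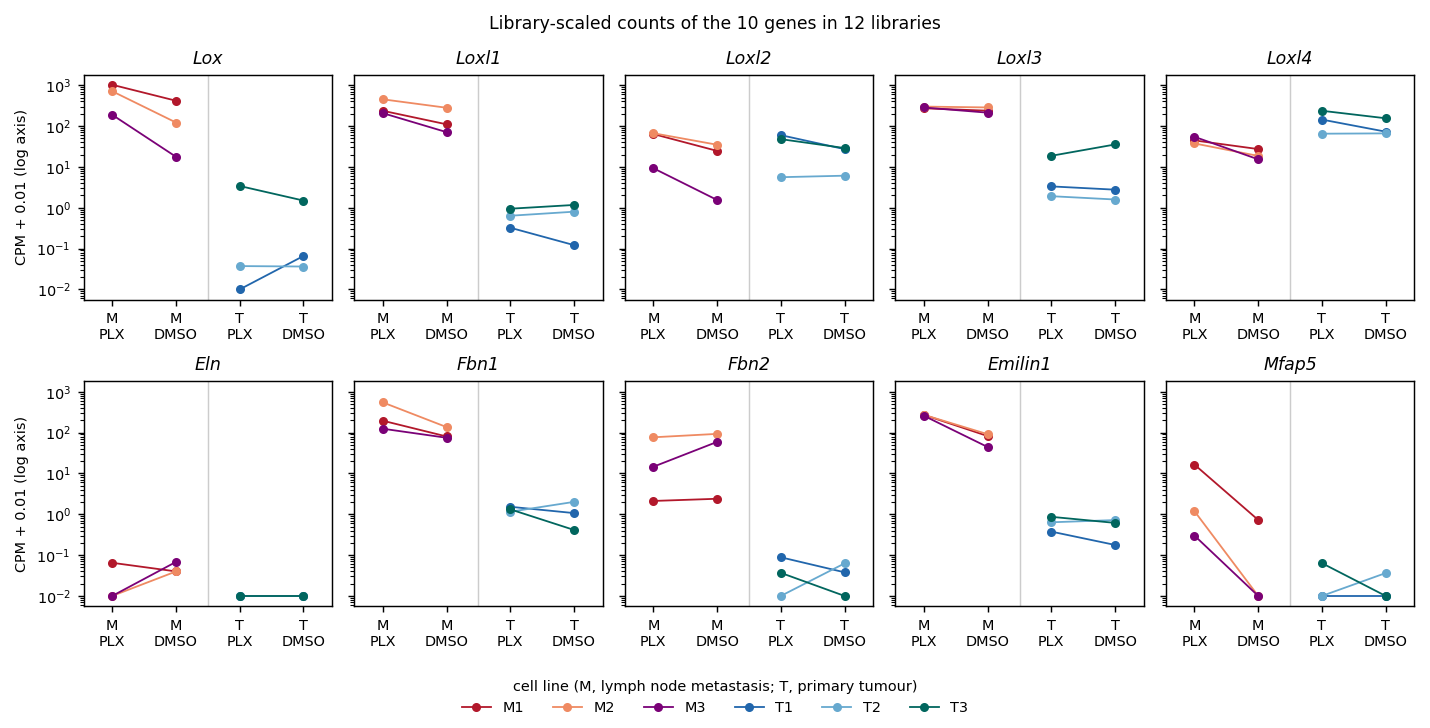
Library-scaled counts of the 10 genes in each of the 12 libraries, as CPM on a logarithmic axis after a small constant was added. Lines join the PLX4720 and the DMSO library of a cell line (M, lymph node metastasis; T, primary tumour). Lox, Loxl1, Loxl3, Fbn1, Fbn2 and Emilin1 lie higher in every metastasis library than in every primary one, Loxl4 lies higher in every primary library, and Eln stays at the bottom.

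Lox (chromosome 18, 52516069 to 52529867, minus strand, GRCm38) encodes the founding lysyl oxidase, which starts the cross-links of both collagen and elastin. It stood at 1027, 712 and 189 CPM in M1, M2 and M3 under PLX4720, against 0, 0.0272 and 3.40 CPM in T1, T2 and T3. Under DMSO it stood at 417, 122 and 17.7 CPM in the metastasis lines, against 0.0557, 0.0263 and 1.49 CPM in the primary lines. The sites did not overlap, and T3 alone held more than 2 fragments among primary lines. The fitted log2 difference was 9.15 (SE 2.04, adjusted p = 0.0317 by edgeR) under PLX4720 and 8.46 (SE 1.87, adjusted p = 0.0328) under DMSO. Neither call was firm across lines. Under PLX4720 it was lost without T1, T2, M1, M2 or M3, at adjusted p of 0.0552, 0.0718, 0.0669, 0.0844 and 0.0578, and under DMSO without T1, T2, M1 or M2, at 0.0877, 0.0886, 0.0759 and 0.0789. Without T3 the difference was 15.23 under PLX4720 and 12.07 under DMSO, and without M1 it was 7.05 under DMSO.

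Loxl1 (chromosome 9, 58287723 to 58313212, minus strand) is the family member most closely tied to elastin deposition in mice. It stood at 237, 452 and 207 CPM in M1, M2 and M3 under PLX4720, against 0.314, 0.626 and 0.936 CPM in T1, T2 and T3. Under DMSO the metastasis lines held 110.4, 281 and 71.0 CPM and the primary lines 0.111, 0.790 and 1.16 CPM. The lowest metastasis library was far above the highest primary one, with a fitted log2 difference of 8.93 (SE 0.62, adjusted p = 0.00094 by edgeR) under PLX4720 and 7.81 (SE 1.01, adjusted p = 0.00638) under DMSO. The DMSO value was 8.43 without T3 and 7.05 without M2.

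Loxl3 (chromosome 6, 83034173 to 83052562, plus strand), which mouse development needs for palate and spine, varied little among metastasis lines. They held 272, 299.9 and 285 CPM under PLX4720, and primary lines held 3.32, 1.91 and 18.7 CPM. Under DMSO the values were 238, 286 and 213 CPM in metastasis lines and 2.76, 1.58 and 35.4 CPM in primary lines. T3 stood apart from T1 and T2 under both treatments, yet below every metastasis line. The log2 difference was 5.19 under PLX4720 (SE 0.94, adjusted p = 0.0163 by edgeR) and 4.21 under DMSO (SE 1.22, adjusted p = 0.0777), which did not pass. Without T3 these became 6.80 and 6.86, with adjusted p of 0.00221 and 0.00413, and without M2 the PLX4720 call was lost (adjusted p = 0.0517). Of its exonic bases, 11.6% overlap Htra2 on the opposite strand, whose fragments the counting cannot tell apart.

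Loxl4 (chromosome 19, 42593982 to 42612813, minus strand), which shares its scavenger receptor domains with Loxl2 and Loxl3, was the member higher in primary lines. Metastasis lines held 44.5, 37.5 and 54.6 CPM under PLX4720 and primary lines 144, 65.0 and 237 CPM. Under DMSO metastasis lines held 27.3, 18.6 and 15.3 CPM and primary lines 72.9, 66.2 and 155 CPM. Every metastasis library lay below every primary library of its treatment. The log2 difference passed under DMSO (-2.25, SE 0.42, adjusted p = 0.0199 by edgeR) and did not under PLX4720 (-1.68, SE 0.46, adjusted p = 0.0614). The DMSO call was lost without M2 (adjusted p = 0.0821) or M3 (adjusted p = 0.0683), and the PLX4720 difference passed without T2 (adjusted p = 0.0193).

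The bases just upstream of Loxl4 are shown, the lysyl oxidase that primary lines transcribe most and 1 of those that rose under PLX4720 in metastasis lines. The RefSeq promoter table used here held 3 of the 10 genes, and for Fbn1 and Emilin1 all 250 bases of the window lie in annotated exons, so that Loxl4 alone is printed. The 250 bases lie at chr19:42612807-42613056 on the minus strand (GRCm38.p6, RefSeq), written 5′ to 3′, and the capitals mark a GTCTG core of SMAD factors on the reverse strand, at positions -226 to -222 from the start.
Loxl4 upstream: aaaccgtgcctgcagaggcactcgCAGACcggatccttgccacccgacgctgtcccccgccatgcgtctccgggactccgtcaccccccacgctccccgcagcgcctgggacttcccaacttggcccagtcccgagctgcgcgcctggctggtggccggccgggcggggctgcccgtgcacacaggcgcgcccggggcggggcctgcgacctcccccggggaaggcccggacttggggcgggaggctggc
GC made up 76.0% of these bases, against a median of 52.4% over all promoters in the table. Motifs of 5 factors were searched on both strands. The window held 1 match to GTCTG, the SMAD core, which 42.2% of the 32851 windows of this length in the table also held. It held no match to the AP-1 motif TGANTCA, found in 6.75% of the windows. The TEAD motif GGAATG, found in 12.6%, was likewise without a match. The same was true of ACGTG, the core of hypoxia response elements, found in 16.6% of the windows. The TATA box, searched as TATAAA and found in 12.4% of the windows, had no match either. The matched bases overlap no other motif searched. A match of letters does not show a bound site.

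Loxl2 (chromosome 14, 69609068 to 69695834, plus strand), known for cross-linking the collagen of basement membranes, varied more within a site than between sites. Metastasis lines held 63.8, 66.8 and 9.28 CPM under PLX4720 and primary lines 59.9, 5.58 and 47.8 CPM. Under DMSO metastasis lines held 24.6, 34.9 and 1.54 CPM and primary lines 27.2, 6.08 and 28.9 CPM. M3 and T2 were the low lines of their sites under both treatments. The log2 difference was 0.32 (SE 0.97, adjusted p = 0.872 by edgeR) under PLX4720 and -0.01 (SE 1.04, adjusted p = 0.997) under DMSO, with errors wide enough to hide a change of several fold. Gm27177 and Mir6950 overlap 5.70% of its exonic bases.

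Among the fibre proteins, Eln (chromosome 5, 134702593 to 134747323, minus strand), which encodes the soluble precursor of elastin, had 2, 0 and 0 fragments in M1, M2 and M3 under PLX4720 and 1, 1 and 2 under DMSO. It had 0 fragments in each of the 6 primary libraries, which allows a level of at most 0.0756 to 0.0836 CPM there, taking 3 counts as the limit. Transcripts of the enzymes and of the scaffold were thus measured beside next to no transcript of elastin.

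Fbn1 (chromosome 2, 125300594 to 125507993, minus strand), the main microfibril protein of adult tissue, stood at 196, 549.6 and 124 CPM in M1, M2 and M3 under PLX4720, against 1.52, 1.14 and 1.31 CPM in T1, T2 and T3. Under DMSO metastasis lines held 80.4, 137 and 74.8 CPM and primary lines 1.06, 2.00 and 0.403 CPM. Sites did not overlap, and the log2 difference was 7.80 (SE 0.73, adjusted p = 0.00220 by edgeR) under PLX4720 and 6.41 (SE 0.67, adjusted p = 0.00318) under DMSO. Without M2 the PLX4720 value was 6.93, and without T2 the DMSO value was 7.09. Gm9913, on the opposite strand, overlaps 20.1% of the exonic bases of Fbn1.

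Fbn2 (chromosome 18, 58008623 to 58209926, minus strand), a fibrillin best known from developing tissue, differed widely among metastasis lines. These held 2.11, 76.8 and 14.6 CPM under PLX4720 and 2.39, 93.1 and 59.2 CPM under DMSO. M1 was low and M2 high under both treatments. Primary lines gave 4 fragments in all under PLX4720, against 3109 in metastasis lines, and 3 under DMSO, against 5247. The ratio of scaled sums was 841 (95% counting interval 328 to 3088) under PLX4720 and 1956 (669 to 9488) under DMSO, and these intervals cover counting error only. The edgeR test called both (adjusted p = 0.0176 and 0.0125), but the PLX4720 call was lost without T2 (adjusted p = 0.0601) or T3 (adjusted p = 0.0617).

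Emilin1 (chromosome 5, 30913402 to 30921277, plus strand) encodes a glycoprotein at the surface of the elastin core that also restrains the processing of TGF-beta. It stood at 272, 273 and 259 CPM in M1, M2 and M3 under PLX4720, against 0.366, 0.626 and 0.856 CPM in T1, T2 and T3. Under DMSO metastasis lines held 82.3, 91.4 and 44.4 CPM and primary lines 0.167, 0.711 and 0.605 CPM. The site difference was log2 8.78 (SE 0.39, adjusted p = 0.00022 by edgeR) under PLX4720 and 7.20 (SE 0.66, adjusted p = 0.00219) under DMSO, and both calls held without any line in turn. Mfap5 (chromosome 6, 122505845 to 122529290, plus strand), a small glycoprotein of microfibrils, was seen almost only in metastasis lines under PLX4720. There it had 601, 39 and 10 fragments in M1, M2 and M3, and under DMSO 24, 0 and 0. Primary lines gave 0, 0 and 2 fragments under PLX4720 and 0, 1 and 0 under DMSO. With so few fragments its site difference was not tested.

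Counting groups that do not overlap, 6 of the 8 genes tested were higher in every metastasis line under PLX4720, where 16.6% of all genes were, and 1 was lower in every one, where 18.2% were. Under DMSO the counts were again 6 and 1, beside 15.2% and 17.9% of all genes. Lox and Fbn2, and under DMSO also Loxl1 and Emilin1, passed the filter through the metastasis lines, where they are high. The counts of higher genes are therefore a description and no test of the group.

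PLX4720 was then compared with DMSO within lines, the question being what BRAF inhibition does to these genes. In metastasis lines Lox, Loxl1, Loxl2, Loxl4, Fbn1, Emilin1 and Mfap5 rose, so that 4 of the 5 lysyl oxidases and 3 of the 4 scaffold genes tested moved up. Loxl3 and Fbn2 did not pass. Thus 7 of 9 genes tested were called higher, while 12% of the 16555 genes were. Mfap5 entered the test through the PLX4720 libraries of these lines, where it is high, and without it the count was 6 of 8 and the median log2 change 1.26, against 0.02 over all genes. In each of the 3 metastasis lines 7 of these 8 were higher under PLX4720, where 26.8% of all genes were, and 1, Fbn2, was lower in each, where 23.2% were. Smooth muscle markers moved with the treatment in the same lines. Their summed level was 1749 to 3725 CPM under PLX4720 and 76.9 to 783 CPM under DMSO, 4 of 5 markers averaged at least 1 CPM under PLX4720, Myh11 averaged 0.436 CPM, and Acta2, smooth muscle actin, rose by 3.51 on the log2 scale (adjusted p = 0.00152 by edgeR). In primary lines the summed level was 2.75 to 45.8 CPM under PLX4720 and 1.82 to 9.19 CPM under DMSO. Whether this has a part in the changes of the 10 genes was not tested.

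**Figure D2:**
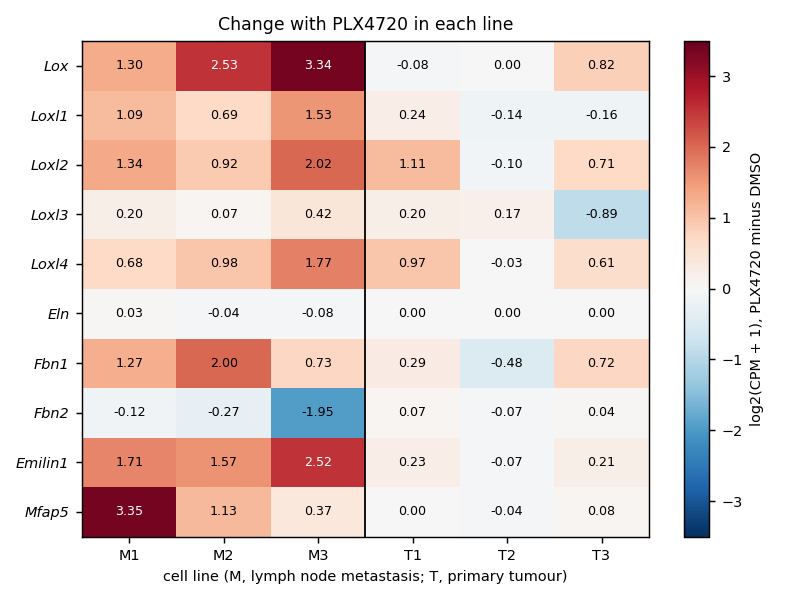
Change of each gene in each line, as log2(CPM + 1) under PLX4720 minus DMSO, with metastasis lines left of the black line and primary lines right of it. Red marks higher and blue lower values under PLX4720. The metastasis columns are red for 8 genes and blue for Fbn2, while the primary columns mix both colours, with T2 between -0.48 and 0.17.

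Lox had the steepest rise among the enzymes. Its level under PLX4720 was 2.46-fold that under DMSO in M1, 5.83-fold in M2 and 10.7-fold in M3, so that the line with the lowest level had the highest fold. The fitted log2 change in metastasis lines was 2.41 (SE 0.34, adjusted p = 0.00170 by edgeR), and the call held without any line in turn, with values between 1.89 and 2.96. Emilin1 was raised 3.30-fold in M1, 2.98-fold in M2 and 5.83-fold in M3, a fitted log2 change of 1.94 (SE 0.18, adjusted p = 0.000238). Under PLX4720 the 3 lines reached nearly the same Emilin1 level, with a mean of 268 ± 7.91 CPM against 72.7 ± 24.9 CPM under DMSO (SD, n = 3 lines each).

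Loxl1 rose by 1.11 on the log2 scale (SE 0.17, adjusted p = 0.00252 by edgeR), with folds of 2.15 in M1, 1.61 in M2 and 2.92 in M3. Loxl2 rose by 1.51 (SE 0.30, adjusted p = 0.00842), with folds of 2.59, 1.92 and 6.03. Loxl4 rose by 1.18 (SE 0.23, adjusted p = 0.00833), with folds of 1.63, 2.02 and 3.57. For these 3 enzymes, as for Lox, the highest fold was in M3. Loxl3 had folds of 1.15, 1.05 and 1.34 and a log2 change of 0.23 (SE 0.18, adjusted p = 0.428), which did not pass.

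The fibrillins parted. Fbn1 rose by 1.34 on the log2 scale (SE 0.28, adjusted p = 0.0112 by edgeR), with folds of 2.43 in M1, 4.02 in M2 and 1.66 in M3, and the call was lost without M2 (0.99, adjusted p = 0.0808). The level of Fbn2 under PLX4720 was 0.883-fold that under DMSO in M1, 0.825-fold in M2 and 0.246-fold in M3. Its log2 change of -0.89 (SE 0.35) did not pass, at adjusted p = 0.105 by edgeR, but it did when no filter on low counts was applied (-0.90, adjusted p = 0.00993). As a share of both fibrillins per kilobase of exon, Fbn2 made up 1.23%, 13.9% and 11.9% in M1, M2 and M3 under PLX4720, against 3.32%, 44.1% and 47.8% under DMSO. Lines M2 and M3 thus held a mixed fibrillin transcript pool under DMSO, and Fbn1 predominated in all 3 metastasis lines under PLX4720.

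Mfap5 was higher under PLX4720 in each metastasis line. It was 23.0-fold higher in M1, at least 13.3-fold higher in M2 and at least 3.34-fold higher in M3, the last 2 taken against a limit of 3 counts in the DMSO library. It passed the filter on low counts through the 3 PLX4720 libraries of these lines, since 1 of the 3 DMSO libraries and no primary library reached 10 fragments. The edgeR test called it (adjusted p = 0.000761), which under that filter is a description, and DESeq2 did not (adjusted p = 0.0990). Without M1, the line with the most fragments, it was not tested.

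In primary lines none of the 9 genes tested passed, while 8.23% of all genes did. By edgeR 1 of them, Loxl4, had an unadjusted p under 0.05, as did 26.1% of all genes, and DESeq2 called 0. No gene of the 9 moved the same way in all 3 primary lines, against 27.3% of all genes higher and 24.5% lower in every one. Mfap5, with 0 fragments in both T1 libraries, could not count here. Lox had at most 2 fragments per library in T1 and T2, and Fbn2 at most 3 in every primary library. For these genes the direction carries no information. Loxl4 was 1.98-fold in T1, 0.982-fold in T2 and 1.53-fold in T3, a log2 change of 0.53 (SE 0.22, adjusted p = 0.179 by edgeR). Loxl2 had the same order, with folds of 2.20, 0.918 and 1.65 and a log2 change of 0.63 (SE 0.29, adjusted p = 0.214). T2 was the line with little difference for both. Lox could be followed in T3 alone, at 127 fragments under PLX4720 and 59 under DMSO, a fold of 2.28. Loxl3 in T3 was 0.528-fold, the lowest fold of that gene in any line. Loxl1, Fbn1 and Emilin1 had log2 changes of -0.09, 0.29 and 0.33, on 4 to 76 fragments per library, and Fbn2 and Mfap5 had too few fragments for a fold to be given.

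**Figure D3:**
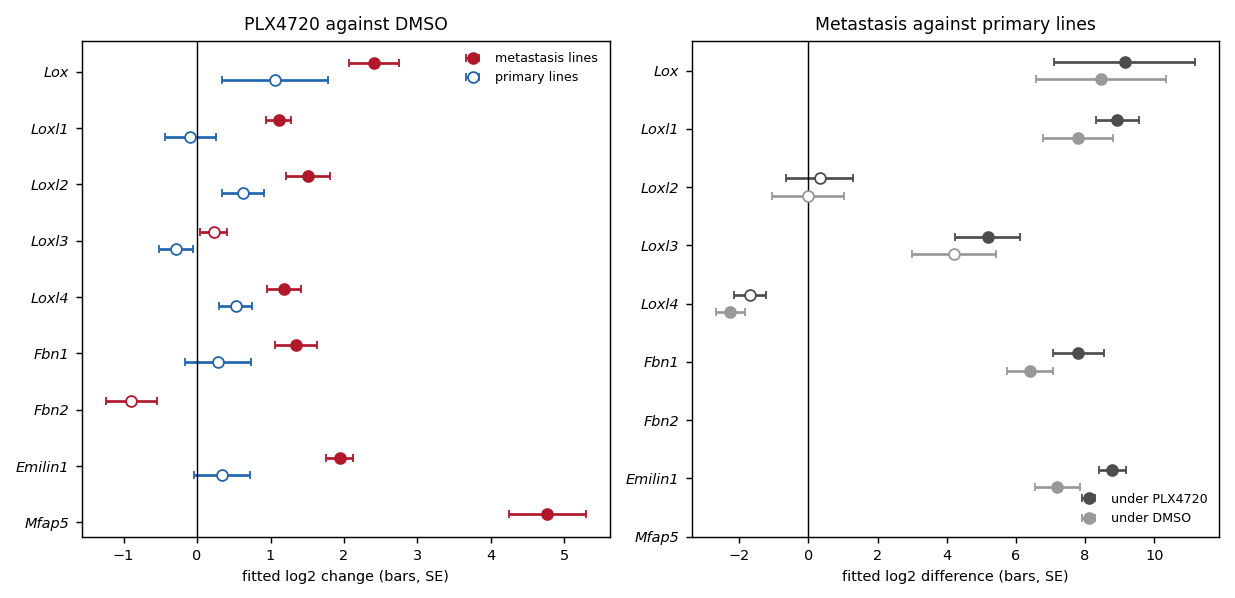
Fitted log2 values with their SE for each gene, PLX4720 against DMSO by site on the left and metastasis against primary lines by treatment on the right. Filled circles passed an adjusted p of 0.05, open ones did not, and genes with under 10 fragments in either group are not drawn. The 7 filled values on the left are all of metastasis lines, and on the right Loxl4 alone passed below 0.

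Over all 6 lines, 4 of the 9 genes tested were higher under PLX4720, while 14.5% of all genes were. These were Emilin1 (log2 change 1.14, SE 0.21, adjusted p = 0.00569 by edgeR), Loxl4 (0.85, SE 0.16, adjusted p = 0.00611), Loxl2 (1.07, SE 0.21, adjusted p = 0.00692) and Lox (1.73, SE 0.40, adjusted p = 0.0137). The Lox call rested on T3, without which it was 0.51 with adjusted p = 0.935, and DESeq2 did not make it (adjusted p = 0.108). Without Mfap5 the count was 4 of 8, and the median log2 change was 0.83 over the 8 genes and 0.03 over all genes. Fbn1 fell just short of the threshold (0.81, SE 0.27, adjusted p = 0.0509) and passed without T2 or M3, at adjusted p of 0.0178 and 0.0293. Loxl1 (0.51, SE 0.19, adjusted p = 0.0848) passed without M2 (adjusted p = 0.0492). Loxl3, Fbn2 and Mfap5 did not pass, at adjusted p of 0.916, 0.895 and 0.0993.

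Whether the PLX4720 effect differed between sites was tested directly, as metastasis minus primary effect. None of the 9 genes passed, while 2.94% of all genes did. At an unadjusted p under 0.05 edgeR gave 2, Emilin1 and Loxl1, beside 14.7% of all genes, and DESeq2 called the same 2 after adjustment. Emilin1 had a log2 difference of 1.61 (SE 0.43, adjusted p = 0.0974 by edgeR) and Loxl1 of 1.20 (SE 0.39, adjusted p = 0.169). With DESeq2 the adjusted p was 0.00440 for Emilin1 and 0.0309 for Loxl1, and with no filter on low counts in edgeR 0.00451 and 0.0269. The other differences ran from -1.23 for Fbn2 to 3.95 for Mfap5, both on few primary fragments. A change called in metastasis lines and not in primary lines is therefore not shown to differ between the sites for these genes by the edgeR test.

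Per kilobase of exon, so that genes can be set beside each other, the lysyl oxidase family summed to 366, 369.98 and 178 CPM in M1, M2 and M3 under PLX4720, against 183, 183 and 75.1 CPM under DMSO. Primary lines summed to 46.1, 17.1 and 70.1 CPM per kilobase under PLX4720 and 23.0, 17.4 and 50.5 CPM under DMSO. Each metastasis library exceeded each primary one. The make-up differed as well as the total. Lox made up 58.3%, 40.0% and 22.0% of the family in M1, M2 and M3 under PLX4720, against 47.5%, 13.9% and 4.89% under DMSO. Loxl3 made up 16.2%, 17.6% and 34.8% under PLX4720, against 28.3%, 34.0% and 61.6% under DMSO. In M3 under DMSO the family was thus mostly Loxl3, a gene whose own level did not pass the test for PLX4720. Loxl4 made up 2.41% to 7.28% of the family in metastasis lines under PLX4720 and 2.41% to 4.84% under DMSO. In primary lines it made up 74.2%, 90.4% and 80.2% under PLX4720 and 75.3%, 90.2% and 72.9% under DMSO.

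**Figure D4:**
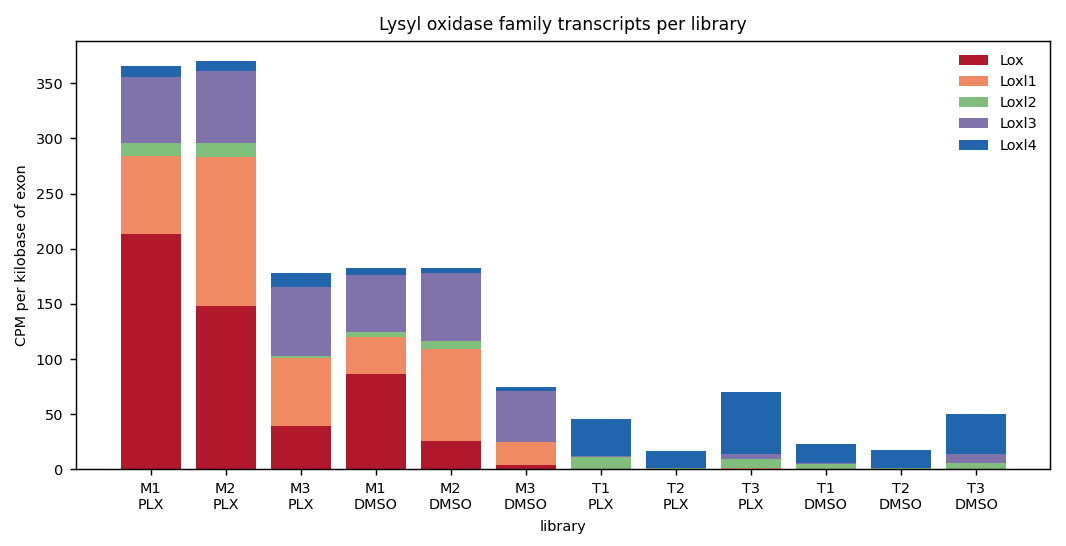
Transcripts of the 5 lysyl oxidases in each library, as CPM per kilobase of exon, stacked by gene. Metastasis libraries hold Lox, Loxl1 and Loxl3 in the main and each total is higher under PLX4720, while primary libraries hold mostly Loxl4.

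On the same scale per kilobase, the levels in metastasis lines under PLX4720 followed the order Lox (134 ± 88.0 CPM), Loxl1 (89.5 ± 40.05), Loxl3 (62.1 ± 2.98), Emilin1 (54.2 ± 1.60), Fbn1 (23.9 ± 18.8), Loxl4 (10.8 ± 2.03), Loxl2 (8.63 ± 5.99), Fbn2 (2.97 ± 3.82) and Mfap5 (1.67 ± 2.53), as mean and SD of 3 lines. The ranges of neighbours in this order over the 3 lines overlapped, except those of Loxl3 and Emilin1 and those of Emilin1 and Fbn1. Under DMSO the order was led by Loxl3 (53.3 ± 8.06), Loxl1 (46.2 ± 33.4) and Lox (38.6 ± 43.1), whose spreads overlap. In primary lines Loxl4 (35.3 ± 20.4 under PLX4720, 23.3 ± 11.8 under DMSO) stood above Loxl2 (6.99 ± 5.28 and 3.84 ± 2.35), and the genes other than these and Loxl3 averaged at most 0.237 CPM per kilobase.

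Genes that act with the 10 were read from 5 lists of textbook members. Of 16 elastic fibre assembly partners tested, 7 rose in metastasis lines, where 12% of all genes did, 3 rose in primary lines, where 4.46% did, and 5 rose over all 6 lines, where 14.5% did. Fbln5, fibulin 5, which docks elastin onto microfibrils, averaged 126 ± 49.2 CPM in metastasis lines under PLX4720 and 27.0 ± 11.0 CPM under DMSO (SD, n = 3 lines), a log2 change of 2.24 (SE 0.14, adjusted p = 4.35e-05 by edgeR). Ltbp2, a latent TGF-beta binding protein of microfibrils, rose by 1.43 (SE 0.19, adjusted p = 0.00109) in the same lines. Primary libraries held at most 2 fragments of Fbln5 per treatment group, and Ltbp2 averaged 0.302 CPM there under PLX4720 and 0.225 CPM under DMSO. Efemp1 and Adamtsl4 rose at both sites, Efemp1, fibulin 3, by 0.82 (SE 0.13, adjusted p = 0.00342) in metastasis and 0.98 (SE 0.14, adjusted p = 0.00736) in primary lines. Adamtsl4, which binds fibrillin, rose by 1.24 (SE 0.20, adjusted p = 0.00319) and 1.10 (SE 0.20, adjusted p = 0.0175). Efemp2, fibulin 4, which brings lysyl oxidase to elastin, rose by 0.68 (SE 0.10, adjusted p = 0.00182) in metastasis lines, and Ltbp4 rose in primary lines by 0.79 (SE 0.17, adjusted p = 0.0265).

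**Figure D5:**
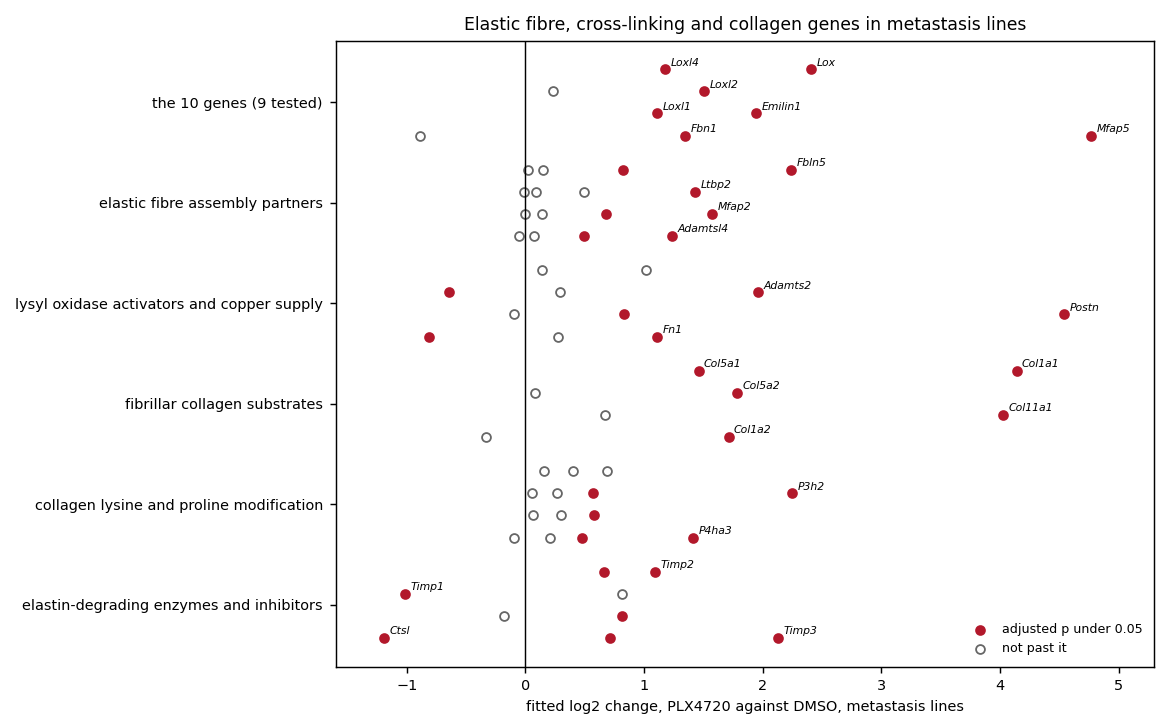
Fitted log2 change in metastasis lines, PLX4720 against DMSO, for the 10 genes and for 5 lists of related genes, leaving out genes with under 10 fragments in either group. Filled circles passed an adjusted p of 0.05 and those beyond a log2 change of 1 are named. The 5 fibrillar collagens that passed lie to the right, as do the 4 lysyl oxidases that passed, and the other 3 collagens are open circles. Ctsl and Timp1 lie to the left.

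Among 11 activators of lysyl oxidases and copper carriers tested, 4 rose and 2 fell in metastasis lines, beside 12% and 8.36% of all genes. In primary lines 1, Fn1, rose, beside 4.46% of all genes, so that this count is near the background. Postn, periostin, which promotes the activation of lysyl oxidase, averaged 273 ± 163 CPM under PLX4720 and 14.8 ± 12.4 CPM under DMSO in metastasis lines, a log2 change of 4.54 (SE 0.33, adjusted p = 7.86e-05 by edgeR). Fn1, fibronectin, rose by 1.11 (SE 0.13, adjusted p = 0.000687) in metastasis and 0.64 (SE 0.13, adjusted p = 0.0256) in primary lines. Pcolce, an enhancer of procollagen cleavage, rose by 0.83 (SE 0.14, adjusted p = 0.00438) in metastasis lines. Its relative Pcolce2 decreased by 0.65 (SE 0.12, adjusted p = 0.00728). The procollagen proteases parted too, as Adamts2 rose by 1.96 (SE 0.23, adjusted p = 0.000633) and Adamts14 decreased by 0.81 (SE 0.15, adjusted p = 0.00720). Atp7a, the pump that loads copper onto secreted enzymes, rose by 0.31 (SE 0.09, adjusted p = 0.0331) over all 6 lines.

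Of 8 fibrillar collagen genes, substrates of the lysyl oxidases, 5 rose in metastasis lines, where 12% of all genes did. In primary lines edgeR called 0 of the 8, beside 8.23% of all genes, and DESeq2 called 0. By edgeR 2 had an unadjusted p under 0.05, beside 26.1% of all genes, so that these counts are near the background. For 4 of them, Col1a1, Col3a1, Col5a1 and Col11a1, the difference between sites itself passed, as it did upward for 1.85% of all genes. Col3a1 was not among the 5 that rose in metastasis lines. Its primary lines gave 22 fragments in all under PLX4720 and 93 under DMSO, and those of Col11a1 gave 63 and 60. The differences of these genes thus rest on few primary fragments. Col1a1 averaged 456 ± 244 CPM in metastasis lines under PLX4720 and 33.8 ± 29.5 CPM under DMSO, a log2 change of 4.14 (SE 0.34, adjusted p = 0.000124 by edgeR). In primary lines it averaged 2.35 ± 2.38 and 1.07 ± 0.803 CPM, and the effects differed by 3.10 (SE 0.58, adjusted p = 0.0278). Col11a1 rose by 4.02 (SE 0.22, adjusted p = 2.18e-05) in metastasis lines and Col5a1 by 1.46 (SE 0.12, adjusted p = 0.000114), with differences between sites of 3.85 (adjusted p = 0.00868) and 1.32 (adjusted p = 0.00737). Col5a2 and Col1a2 rose by 1.78 (SE 0.19, adjusted p = 0.000428) and 1.71 (SE 0.26, adjusted p = 0.00222). Col1a1 is also 1 of the fibroblast and stellate markers.

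Of 14 genes for lysine and proline modification of collagen inside the cell, 5 rose in metastasis lines, beside 12% of all genes. In primary lines 1 rose and 1 fell, beside 4.46% and 3.77% of all genes, counts near the background. P3h2, a prolyl 3-hydroxylase, and P4ha3, a prolyl 4-hydroxylase subunit, rose in metastasis lines by 2.25 (SE 0.34, adjusted p = 0.00238 by edgeR) and 1.41 (SE 0.18, adjusted p = 0.00110). Plod1, a lysyl hydroxylase, rose by 0.57 (SE 0.09, adjusted p = 0.00329). In primary lines Colgalt1, which adds galactose to hydroxylysine, rose by 0.49 (SE 0.08, adjusted p = 0.0121) and P4ha1 decreased by 0.57 (SE 0.13, adjusted p = 0.0300). Between sites P4ha1 was higher in metastasis lines by 3.05 under PLX4720 (adjusted p = 0.00589) and 2.34 under DMSO (adjusted p = 0.00294), and P3h3 by 4.90 (adjusted p = 0.00754) and 4.13 (adjusted p = 0.0173). Of 10 elastin-degrading enzymes and inhibitors tested, 5 rose and 2 fell in metastasis lines, beside 12% and 8.36% of all genes, and 2 rose and 1 fell in primary lines, beside 4.46% and 3.77%. Ctsl, cathepsin L, averaged 1017 ± 294 CPM under PLX4720 and 2289.9 ± 532 CPM under DMSO in metastasis lines and decreased by 1.19 on the log2 scale (SE 0.12, adjusted p = 0.000316), and it decreased by 0.77 (SE 0.12, adjusted p = 0.0107) in primary lines. Timp1, an inhibitor of metalloproteinases, decreased by 1.02 (SE 0.20, adjusted p = 0.00808) in metastasis lines, while its relatives Timp2 and Timp3 rose by 1.10 (SE 0.13, adjusted p = 0.000607) and 2.13 (SE 0.28, adjusted p = 0.00120). Mmp14, a membrane-bound metalloproteinase, rose by 0.71 (SE 0.08, adjusted p = 0.000666) in metastasis and 0.53 (SE 0.08, adjusted p = 0.0120) in primary lines. Ctsk, cathepsin K, was higher in metastasis lines than in primary lines by log2 7.39 under PLX4720 (adjusted p = 0.00531) and 8.06 under DMSO (adjusted p = 0.00284). Primary lines gave 14 fragments of Ctsk in all under PLX4720 and 9 under DMSO. Ctsk thus entered those tests through the metastasis lines, where it is high, and its p-values there only describe it.

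The genes most like each member over the 12 libraries were found by Pearson r of log2(CPM + 1), among genes whose average log2 CPM was 1 or more, leaving out Gm and Rik placeholders. Because the sites form separate clusters, these values mostly follow the site contrast and are given as a description. Pdgfrb was among the 3 nearest of Loxl1 (r = 0.997), Emilin1 (0.995) and Fbn1 (0.993), and Col1a2 was next to Loxl1 (0.997) and nearest to Fbn1 (0.994). Medag was nearest to Lox (0.997), Fam110b to Emilin1 (0.999), Morn4 to Loxl3 (0.988), Mgp to Fbn2 (0.975) and Aox3 to Mfap5 (0.960). The 2 members that did not follow the site contrast upward had other neighbours. Loxl4 lay nearest to Tnfaip3 (0.984) and Smad7 (0.962), and Loxl2 to Fgfr2 (0.938) and Col4a2 (0.905).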

How the data were processed

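Ribosomal RNA was depleted and strand-specific libraries were prepared, per the labels' protocols. What the authors deposited are unscaled counts for each gene from featureCounts 1.5.2, run on Ensembl 84 exons of GRCm38 for pairs with both ends mapped, per the file headers. No strand option is recorded there, so overlapping genes cannot be separated. Which aligner was used is not stated in the labels or headers. Of 47729 genes, 47224 matched a symbol.

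Counts were analysed with edgeR 4.0.16 in R 4.3.3 (filterByExpr, TMM scaling, quasi-likelihood test, Benjamini-Hochberg adjustment over all genes tested, threshold 0.05). The effect of PLX4720 came from a single fit of the 12 libraries with the cell line as block and a treatment term per site. The effect over 6 lines is the mean of both terms. Sites were compared on the 6 libraries of a treatment without a block. Both designs left 4 residual degrees of freedom. SE is the absolute log2 change over the root of F, approximate at low counts. CPM uses TMM-scaled library sizes, and changes per line use log2(CPM + 1). A fold per line was given from 10 fragments in both libraries.

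Deviations from group means correlated at 0.839 to 0.923 between the 2 libraries of a line, which the labels name as the same line. Libraries of a group differed beyond counting noise (chi-square per degree of freedom at least 127). On simulated counts with 200 changed genes, log2 changes of 1 were recovered at 98% over 6 lines and 79% in metastasis lines. The share was 82% in primary lines and 52% for the difference between sites. Wrong calls made up 4.35%, 4.84%, 5.73% and 11.4% of the calls made, in the same order. When sites were compared, they made up 7.28% under DMSO and 6.47% under PLX4720. Except over 6 lines and in metastasis lines, these shares exceeded the threshold of 0.05. Recovery was not split by expression level, so it does not speak for members with few fragments in primary lines. DESeq2 1.42.0, its size factors, no filter on low counts, other blocks, fits per site and leaving out each line were the alternatives. The members, lists and named-gene rule were chosen with earlier results of these data known. The rule takes all 10 members, per list up to 4 genes of smallest p over 6 lines and up to 2 per site comparison, and 3 nearest genes per member.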

Additional observations from a re-analysis of the deposited data

How the results depend on the processing

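With no replicate block for the cell line, 18 genes were called over all 6 lines (main 4496), 15 in metastasis lines (main 3378), 1 in primary lines (main 1362) and 0 for the difference between sites (main 487). None of the 10 members was called then, 0 over all lines and 0 in metastasis lines. With libraries of a site fitted alone, 2195 genes were called in metastasis and 2491 in primary lines. With no filter on low counts, 2052 genes were called in primary lines and 996 for the difference between sites, and members called became 7 over all lines and 2 for that difference. DESeq2 called 921 genes and 2 members for that difference, and 2974 and 3163 genes between sites under DMSO and PLX4720 (main 1819 and 2061). The labels do not say that line numbers, M1 with T1 and so on, pair lines across sites. Deviations of such lines correlated at -0.0982 to 0.012, and 1 of 12 libraries lay closest to its own number. With so few lines this cannot exclude a shared source. Whether the number that the file naming gives T3, M2 and M3 links those lines was not tested. With the line number as a replicate block, 1106 genes were called between sites under DMSO, and Lox (adjusted p = 0.122), Loxl4 (0.0675) and, under PLX4720, Lox (0.0732) and Fbn2 (0.0511) were not called by edgeR.

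Leaving out a line gave 2417 to 4384 genes over all lines, 1891 to 3090 in metastasis lines, 91 to 2252 in primary lines, 122 to 798 for the difference between sites, 901 to 1595 between sites under DMSO and 1097 to 1712 under PLX4720. The causes were not tested, beyond the fewer libraries in each fit. Signs turned for members that had not passed. For PLX4720 over all lines these were Loxl3 (-0.15 to 0.25, and 0.019 with DESeq2) and Fbn2 (-0.84 to 0.40). In primary lines they were Lox (-1.37 to 1.18), Loxl1 (-0.30 to 0.14), Loxl3 (-0.49 to 0.29), Fbn1 (-0.16 to 1.02), Fbn2 (-0.77 to 1.72) and Mfap5 (-2.20 to 3.16). The difference between sites turned for Loxl3 (-0.075 to 0.69). Loxl2 between sites ran from -0.63 to 0.55 under DMSO (0.024 with no filter) and from -0.22 to 0.81 under PLX4720. Among values of single members, 461 kept their direction and side of the threshold, 33 fell short, 17 newly passed and 20 turned. Depth limits Eln, Mfap5 and, in primary lines, Lox, Fbn2 and Emilin1.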
